A study of Mus musculus with 16 samples.

Results

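The genes described here make fatty acids and assemble them into triglyceride in the mouse liver. The set was a list of 35 genes for fatty acid synthesis, the supply of NADPH and of glycolytic carbon, the activation of fatty acids, glycerolipid assembly, lipases and lipid export, and the regulators of these steps. A gene was taken from the list where it had a probe on the array, which left 33 genes of 19057 in all, since no probe carried the name of G6pdx or Acsl1. Of these, 28 passed the filter on dim probes, being detected on 3 or more of the 16 arrays, and were tested among 9906 genes. The other 5 (Acaca, Me1, Pgd, Lpin3 and Mogat1) had a probe that was too dim, so nothing is said of their RNA. RNA was measured in liver from 4 groups of mice aged 2 months, with 1 Illumina mouse bead array per sample. The groups were hs-RXRα KO (here KO) livers, in which Rxra carries a deletion specific to hepatocytes, with 3 male and 5 female samples. The others were wild-type (WT) livers, also with 3 male and 5 female samples. RXRα is the nuclear receptor that pairs with LXR, PPARα, FXR and others on DNA. The label of the KO genotype names the deletion hs-RXRa-Dex4-/-. The driver of the deletion, the strain, the feeding state and the time of day are not given in the sources used here, and liver cells other than hepatocytes keep the receptor in a deletion of this kind.

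In the liver, carbohydrate is split by glycolysis, citrate leaves the mitochondria and is cleaved to acetyl-CoA, and acetyl-CoA is built into palmitate with the reducing power of NADPH. Acyl groups are then joined to a glycerol backbone and stored in droplets or exported in lipoproteins. The transcription factors SREBP-1c (Srebf1) and ChREBP (Mlxipl) drive these genes after a meal rich in carbohydrate. SREBP-1c is held in the endoplasmic reticulum by SCAP together with the INSIG proteins and is itself raised by LXR paired with RXR.

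Each deposited value is an intensity after background subtraction and normalization, with a median of 5.55 to 5.63 on every array, and a value above 20.9 to 21.0 counted as detected. Between 8725 and 8984 genes were detected per array. Xist was detected on 10 of 10 female arrays and on 0 of 6 male arrays. The Rxra probe read 62.1, 109 and 84.4 in male KO livers and 78.4, 47.7 and 65.5 in male WT livers, and 88.6, 100.5, 74.9, 54.2 and 81.7 in female KO livers and 59.7, 64.4, 52.6, 106 and 66.2 in female WT livers. It was not lower in KO livers, and its place relative to the deleted exon is not given in the sources used here, so it does not check the genotype labels. Within groups, female KO 9 correlated least with its fellow KO arrays (mean 0.967), and female WT 4 least of all 16 arrays (mean 0.952). All 8 hepatocyte marker genes were detected, with summed intensities of 186834 to 198737 in male KO, 180517 to 197680 in male WT, 191073 to 201755 in female KO and 173666 to 201999 in female WT livers. One of the 8, the albumin gene Alb, read 567 to 963 in male KO, 564 to 842 in male WT, 584 to 962 in female KO and 1065 to 1668 in female WT livers, and its male minus female log2 difference in WT livers was -0.97 (limma adjusted p = 0.0237). Its KO minus WT difference in females was -0.70 (adjusted p = 0.0814), without overlap of the groups. Alb does not stand for the list, since 4 of the 8 markers were above and 4 below 0 in both comparisons. Their medians were -0.01 between the sexes in WT livers and -0.02 between KO and WT in females. The relation of Alb to the differences below was not tested. The labels do not state that each array is a separate animal, so p-values measure the spread between these samples.

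Sequences of the 250 bases before the RefSeq transcription start (assembly GRCm38.p6) are shown for the 6 genes that passed a test below, because these are the genes on which the comparisons of sex and genotype turn. Of the 35 listed genes, 32 matched a promoter in the RefSeq table, with 46 starts in all. Capitals mark the motifs searched on both strands, which were the GC box GGGCGG, the CCAAT box CCAAT, the E-box CACGTG, the sterol response element variant TCACNCCAC, the nuclear receptor core AGGTCA and the carbohydrate response element (ChoRE), the paired E-box element bound by ChREBP. Capitals do not overlap each other in the windows printed. Every window lies on the strand of its gene and reads 5′ to 3′ toward the start.
Pnpla3 (chr15:84167566-84167815, plus strand): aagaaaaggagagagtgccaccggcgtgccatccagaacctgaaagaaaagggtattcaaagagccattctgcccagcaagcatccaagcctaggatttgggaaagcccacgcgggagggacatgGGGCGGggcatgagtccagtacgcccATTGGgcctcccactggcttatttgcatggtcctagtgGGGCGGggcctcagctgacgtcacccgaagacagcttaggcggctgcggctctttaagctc
Pklr, downstream start (chr3:89136373-89136622, plus strand): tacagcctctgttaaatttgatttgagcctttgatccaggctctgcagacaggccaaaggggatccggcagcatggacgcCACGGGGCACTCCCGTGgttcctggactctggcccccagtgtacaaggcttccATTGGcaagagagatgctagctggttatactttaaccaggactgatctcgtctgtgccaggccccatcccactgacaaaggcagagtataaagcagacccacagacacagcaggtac
Acss2 (chr2:155517793-155518042, plus strand): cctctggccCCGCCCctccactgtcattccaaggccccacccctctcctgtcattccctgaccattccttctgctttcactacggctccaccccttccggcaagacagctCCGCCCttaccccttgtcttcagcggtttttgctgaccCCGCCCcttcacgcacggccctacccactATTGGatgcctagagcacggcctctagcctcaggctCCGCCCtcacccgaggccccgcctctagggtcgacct
Acsl5 (chr19:55253119-55253368, plus strand): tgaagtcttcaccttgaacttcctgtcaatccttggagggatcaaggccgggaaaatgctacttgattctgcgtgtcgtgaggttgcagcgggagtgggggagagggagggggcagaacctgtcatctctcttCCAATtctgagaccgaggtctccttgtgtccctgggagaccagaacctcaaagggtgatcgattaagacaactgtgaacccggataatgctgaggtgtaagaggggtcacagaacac
Mid1ip1 (chrX:10717115-10717364, plus strand): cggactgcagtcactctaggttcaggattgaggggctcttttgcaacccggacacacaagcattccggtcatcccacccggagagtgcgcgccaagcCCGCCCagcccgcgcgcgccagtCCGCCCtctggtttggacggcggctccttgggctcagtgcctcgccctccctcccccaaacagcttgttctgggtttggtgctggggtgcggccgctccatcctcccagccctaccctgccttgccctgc
Insig2, farthest upstream of 3 starts (chr1:121332590-121332839, minus strand): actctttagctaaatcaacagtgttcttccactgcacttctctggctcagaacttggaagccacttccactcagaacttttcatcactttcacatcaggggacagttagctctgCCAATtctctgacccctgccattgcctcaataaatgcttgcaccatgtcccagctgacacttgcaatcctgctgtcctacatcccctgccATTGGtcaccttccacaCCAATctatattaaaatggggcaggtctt

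The ChoRE of Pklr, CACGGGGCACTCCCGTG, lay 170 to 154 bases before the downstream start and was the only match to that element among the 46 windows, against 0.0974% of 32851 windows of the same length over all genes. GC boxes stood in 26 of the 46 windows (56.5%, against 32.7% of all windows), and Acss2 held 4 of them and Pnpla3 2. CCAAT boxes stood in 20 windows (43.5%, against 33.8%), E-boxes in 6 (13.0%, against 6.02%) and the sterol response element variant in 2 (4.35%, against 1.05%), those of Acsl1 and Mlxipl. The core AGGTCA, bound by RXR and its partners as pairs with a spacer, stood in 5 windows (10.9%, against 14.0%), of Acly, Pklr (its upstream start), Gpam, Lpin1 and Insig1. These matches describe letters in short windows and not binding.

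The first comparison asked how male and female WT livers differ. In males, the lipid droplet protein gene Pnpla3 and the supply and activation genes Pklr, Acss2 and Acsl5 were lower than in females, and Insig2, which retains SREBP in the endoplasmic reticulum, was higher. These 5 of the 28 genes passed the test (limma, adjusted p under 0.05 over 9906 genes), where 3.73% of all genes passed. Lower in males were 4 of the 28 (2.11% of all genes) and higher was 1 (1.62% of all genes). The median log2 difference, male minus female, was -0.25 over the 28 genes and -0.02 over all genes, and 21 of the 28 were below 0. By role, all 5 tested genes of fatty acid synthesis lay below 0 on their brightest probes (median -0.76), with 0.006 on a second Slc25a1 probe. Both genes of fatty acid activation also lay below 0 (median -0.70), whereas the 7 genes of glycerolipid assembly were spread around 0 (median 0.01). In 8 of the 28 genes the male and female WT values did not overlap, against 11.5% of all genes.

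Pnpla3, a lipase-like protein of the lipid droplet that is induced by feeding in mouse liver, showed the largest difference of the set. Its intensity was 357, 77.2 and 402 in male KO, 269.9, 34.1 and 65.8 in male WT, 783, 483, 854, 374 and 1087 in female KO and 1323, 2421, 876, 3154 and 348 in female WT livers. Every male WT value was below every female WT value, and the nearest pair was 269.9 and 348. Means were 123 ± 128 (SD, n = 3) in male WT and 1624 ± 1146 (SD, n = 5) in female WT livers, a log2 difference of -3.60 (SE 0.689, 95% interval -5.05 to -2.14, limma adjusted p = 0.00605), or 12.1-fold lower in males on the log2(intensity + 16) scale that is used for every fold and log2 difference here. Leaving out 1 array moved it between -4.31 (without male WT 1) and -3.06 (without male WT 2, where the test was no longer passed).

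Pklr encodes liver pyruvate kinase, the last step of glycolysis. Its intensity was 207, 233 and 221 in male KO, 178, 152 and 115 in male WT, 177, 192, 211, 176 and 326 in female KO and 259, 362, 374, 411 and 233 in female WT livers. The male WT group was the lowest of the 4, and it overlapped neither the female WT nor the male KO group. Male WT livers averaged 148 ± 31.7 (SD, n = 3) and female WT livers 328 ± 77.5 (SD, n = 5), a log2 difference of -1.05 (SE 0.220, limma adjusted p = 0.0115). A dimmer second probe of Pklr gave -0.36 (adjusted p = 0.302), so the probes of this gene differed in size of the sex difference.

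Acss2 encodes the cytosolic enzyme that makes acetyl-CoA from acetate. Its intensity was 6634, 6455 and 6856 in male KO, 4268, 2367 and 3990 in male WT, 10092, 5475, 8634, 7957 and 6537 in female KO and 4599, 8846, 10606, 6185 and 6251 in female WT livers. Male WT values were below all the others. The means were 3542 ± 1027 (SD, n = 3) in male WT and 7297 ± 2395 (SD, n = 5) in female WT livers, with a log2 difference of -1.02 (SE 0.266, limma adjusted p = 0.0435). A second, dim probe gave -0.56 (adjusted p = 0.310). The call of Acss2 was the least firm of the 5, being lost under 18 of 27 alternative settings, among them the fits without male WT 2, male WT 3, female WT 2, 3, 4 or 5, any male KO array or female KO 8 or 10.

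Acsl5, a long-chain acyl-CoA synthetase that primes fatty acids for esterification, varied little within groups. Its intensity was 8225, 9101 and 9583 in male KO, 10630, 7408 and 7648 in male WT, 14798, 10092, 13922, 11145 and 12259 in female KO and 13846, 14550, 15668, 12946 and 14137 in female WT livers. Both male groups lay below the female WT group, and the male KO group lay below the female KO group. In WT livers the log2 difference was -0.75 (SE 0.160, limma adjusted p = 0.0138), and a second probe gave -0.36 (adjusted p = 0.388). Its relative Acsl3 pointed the same way, with -0.66 and an adjusted p of 0.0554.

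Insig2 was the only gene of the set that passed as higher in males. Its intensity was 6809, 6501 and 8678 in male KO, 8581, 8403 and 10470 in male WT, 6335, 5635, 5348, 4306 and 4073 in female KO and 4535, 3820, 5103, 4392 and 5064 in female WT livers. No male value fell within the female range. The means were 9152 ± 1146 (SD, n = 3) in male WT and 4583 ± 529.9 (SD, n = 5) in female WT livers, a log2 difference of 1.00 (SE 0.173, limma adjusted p = 0.00274). Its other 2 probes gave 1.21 (adjusted p = 0.00878) and 0.53 (adjusted p = 0.112). The paralog Insig1, which is itself a target of SREBP, read 6491, 8225 and 9274 in male KO, 6755, 5516 and 9232 in male WT, 5450, 5893, 4560, 5723 and 4979 in female KO and 10557, 8569, 6512, 5499 and 7498 in female WT livers. Its WT groups overlapped, and the log2 difference between them was -0.10 (adjusted p = 0.857). The sign depended on the probe, since 2 other well-detected Insig1 probes gave 0.40 and 0.28 and a dim one -0.67.

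**Figure D1:**
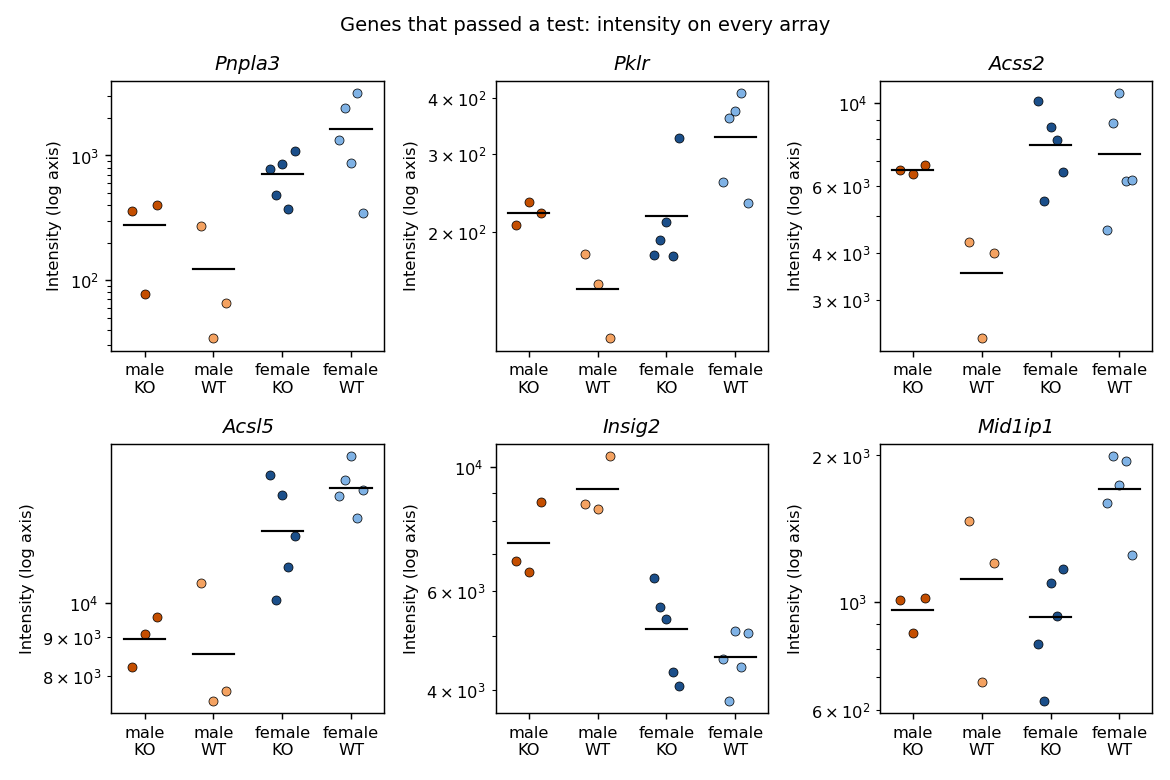
Intensity (log axis) of the 6 genes that passed a test on every array, by group; each point is 1 array and the line is the group mean. Male WT livers sit below female WT livers for Pnpla3, Pklr, Acss2 and Acsl5 and above them for Insig2, and female KO livers sit below female WT livers for Mid1ip1.

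The count of 5 was 2 without male WT 2 (Insig2 and Pklr) and 2 without male WT 3 (Insig2 and Pnpla3). Several markers of other liver cells had lower mean values in male than in female WT livers. All 6 tested Kupffer cell markers had a male minus female log2 difference below 0 (median -0.47, 0 called). The 7 with a probe summed to 3873 to 4958 in male WT livers. In female WT livers they summed to 11325 on female WT 2 and to 3486 to 6119 on the other arrays. Cd5l was not detected on any array. Of the tested sinusoidal endothelium markers, 7 of 7 were below 0 (median -0.28, with Pecam1 called at -0.73). The 8 with a probe, of which Kdr was not detected, summed to 7201 to 8257 in male WT and 8341 to 10334 in female WT livers. Stellate cell markers summed to 8317 to 8871 in male WT and 9894 to 10981 in female WT livers, with 5 of 8 below 0 and 0 called. Of 8 adipocyte markers, 7 had a probe and 0 passed the filter, and Lep, Plin1, Fabp4 and Cidea were not detected on any array. The 7 summed to 205.1 on female WT 1 and to between 8.078 and 46.45 on every other array. The part of these other cells in the sex differences was not tested, and in whole liver fewer cells of a type cannot be told apart from less RNA per cell.

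In KO livers, 0 of the 28 genes passed between the sexes by limma, where 2.38% of all genes passed (0.989% as higher and 1.39% as lower in males), and 7 had an unadjusted p under 0.05, against 14.0% of all genes. Of those 7, 5 were higher in males and 2 lower. The median log2 difference, male minus female, was 0.11, with 19 of 28 above 0, and over all genes it was 0.01. Male and female KO values did not overlap for 9 genes, against 13.1% of all genes. The lowest adjusted p was that of Gpd1, the enzyme that makes glycerol 3-phosphate, at 0.0995 for a log2 difference of 0.62. Pnpla3 had -1.49 (95% interval -2.94 to -0.03, adjusted p = 0.345), Acsl5 -0.46 (adjusted p = 0.178) and Insig2 0.52 (adjusted p = 0.160), each with the sign it had in WT livers. For Pklr the value was 0.06 (95% interval -0.41 to 0.53) and for Acss2 -0.19 (95% interval -0.75 to 0.38, with 0.17 on its dim probe). All 6 regulators were above 0 on their brightest probes (median 0.53, with -0.32 on a dimmer Scap probe), led by Mlxipl at 0.85 (adjusted p = 0.456) and Insig1 at 0.58 (adjusted p = 0.208).

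**Figure D2:**
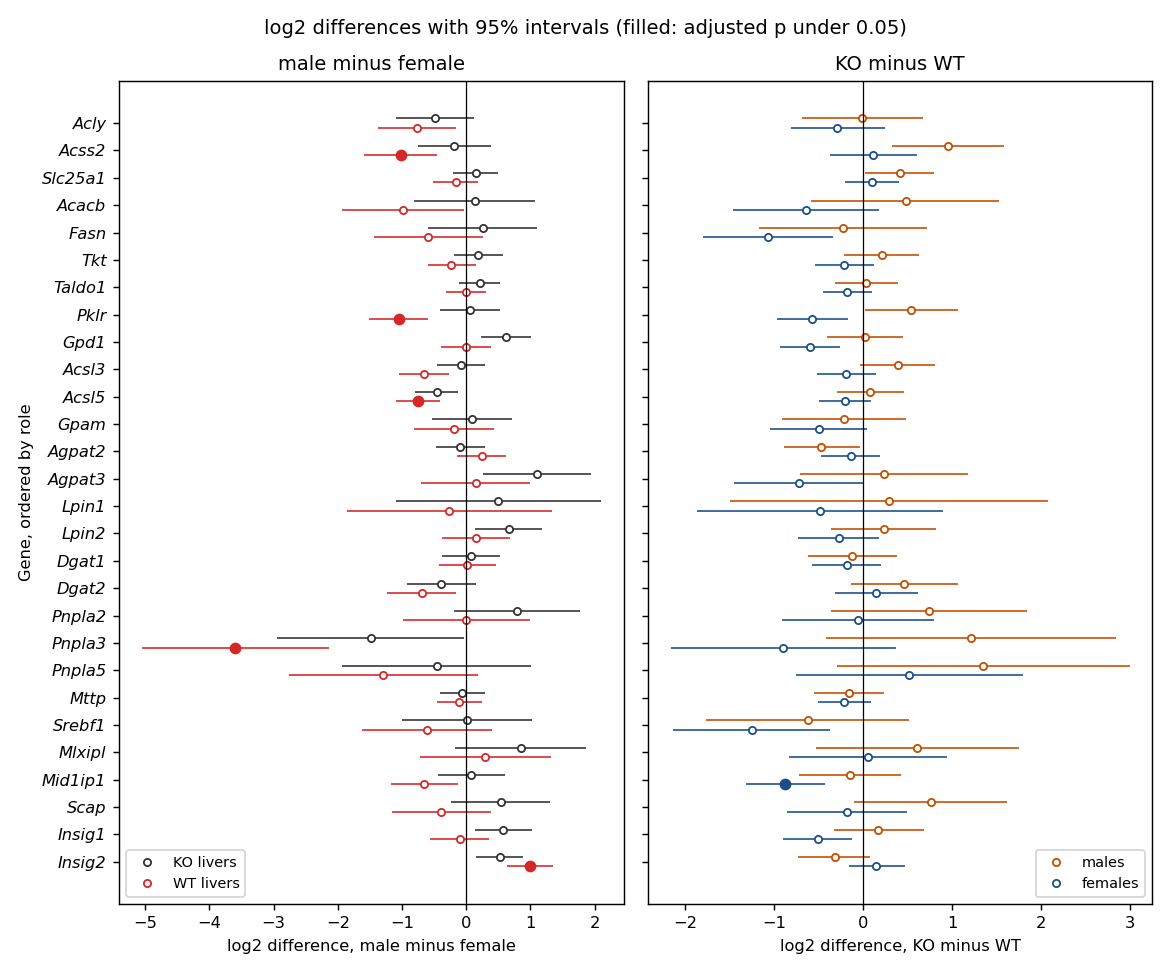
log2 differences with 95% intervals for the 28 tested genes in order of role, male minus female on the left (KO and WT livers) and KO minus WT on the right (males and females); filled points have an adjusted p under 0.05. The 5 filled points on the left are all in WT livers, and the filled point on the right is Mid1ip1 in females at -0.88.

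KO livers were compared with WT livers within each sex to ask which of these genes differ with the deletion in Rxra. In females, Mid1ip1 was lower in KO livers, and it was the only one of the 28 genes to pass, where 2.38% of all genes passed in either direction, 1.29% as higher and 1.09% as lower. Mid1ip1 encodes a protein that promotes the polymerization of acetyl-CoA carboxylase. The median log2 difference, KO minus WT, was -0.21 over the 28 genes, with 22 below 0, and 0.00 over all genes. An unadjusted p under 0.05 was found for 6 genes, all lower in KO livers, against 12.4% of all genes in either direction. These were Mid1ip1, Gpd1, Fasn, Srebf1, Pklr and Insig1. Only Mid1ip1 had groups that did not overlap, against 3.89% of all genes.

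Mid1ip1 read 1009, 864 and 1019 in male KO, 1466, 685 and 1202 in male WT, 822, 626, 1096, 937 and 1170 in female KO and 1596, 1995, 1736, 1944 and 1247 in female WT livers. All female KO values were below all female WT values, while the male groups overlapped. Means were 930.1 ± 218 (SD, n = 5) in female KO and 1703 ± 302 (SD, n = 5) in female WT livers, a log2 difference of -0.88 (SE 0.211, 95% interval -1.32 to -0.43, limma adjusted p = 0.037), or 1.84-fold lower. The test of Mid1ip1 was no longer passed when any of the arrays male WT 3, female WT 1, female WT 2, female WT 3, female WT 4, male KO 4, female KO 6, female KO 7 or female KO 9 was left out, and over 25 alternatives the adjusted p ran between 0.0165 and 0.11.

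Fasn encodes fatty acid synthase, and its probe was dim. Its intensity was 90.9, 50.7 and 61.5 in male KO, 104, 76.2 and 64.3 in male WT, 23.4, 30.1, 80.0, 79.3 and 76.5 in female KO and 97.9, 169, 183, 221 and 46.6 in female WT livers. Of the female WT values, 4 of 5 were above all female KO values. The log2 difference in females was -1.07 (SE 0.346, 95% interval -1.80 to -0.34, limma adjusted p = 0.152). Without female WT 5, the low array, Fasn passed together with Mid1ip1.

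Srebf1, the gene of SREBP-1, read 133, 114 and 156 in male KO, 469, 76.7 and 252 in male WT, 82.0, 109.7, 209, 92.1 and 219 in female KO and 317, 456, 320.3, 605 and 145 in female WT livers. As for Fasn, 4 of the 5 female WT values lay above the female KO range. The log2 difference was -1.25 in females (SE 0.415, limma adjusted p = 0.169) and -0.62 in males (SE 0.535, adjusted p = 0.619), where it was -0.08 without male WT 1 and -1.27 without male WT 2. Gpd1 had -0.60 in females (SE 0.158, adjusted p = 0.0596, passing without female WT 2), Pklr -0.57 (adjusted p = 0.170, passing without female KO 10) and Insig1 -0.51 (adjusted p = 0.222). The other Insig1 probes gave -0.03, -0.08 and, on the dim one, -0.58. Of the genes listed for NADPH supply, only Tkt and Taldo1 of the pentose phosphate path could be tested. They had -0.21 and -0.18 in females, with limma adjusted p of 0.691 and 0.685. Neither enzyme makes NADPH itself, and the listed genes of enzymes that do, G6pdx, Pgd and Me1, could not be tested. All 4 tested lymphocyte and neutrophil markers were below 0 in females (median -0.58, 0 called). The 6 with a probe summed to 242 to 514 in female KO livers. In female WT livers they summed to 1620 on female WT 2 and to 168 to 913 on the other arrays. All 6 tested Kupffer cell markers were also below 0 (median -0.19, 0 called). The part of both lists in the female differences was not tested.

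In males, 0 of the 28 genes passed between KO and WT livers by limma, where 1.56% of all genes passed (0.919% as higher and 0.646% as lower in KO livers), and 4 had an unadjusted p under 0.05, against 14.3% of all genes. Acss2, Pklr and Slc25a1, the mitochondrial citrate carrier, were the 3 of these with higher values in KO livers, with log2 differences of 0.95 (adjusted p = 0.135), 0.54 (0.327) and 0.41 (0.320). Agpat2, which adds the acyl group that turns lysophosphatidic acid into phosphatidic acid, had -0.47 (adjusted p = 0.299). The median of the 28 genes was 0.22, with 19 above 0, and that of all genes was 0.02. The KO and WT values of males did not overlap for 8 genes, against 23.2% of all genes. Pnpla3 had 1.21 (95% interval -0.42 to 2.84), so the interval allows a rise of several-fold as well as a small decrease. Pnpla5, a lipase of the same family, read 46.9 to 117 in male KO, 15.99 to 22.8 in male WT, 37.2 to 222 in female KO and 20.5 to 308 in female WT livers. In male WT livers only 1 of its 3 values was above the detection threshold, and the difference of 1.35 in males had a limma adjusted p of 0.445. A dimmer second probe of Pnpla5 gave 0.65. In males the 6 tested Kupffer cell markers were all above 0 (median 0.25, 0 called). The 5 cholangiocyte markers with a probe, of which 2 were tested, summed to 258 to 403 in male KO and 115 to 233 in male WT livers. Krt19 and Epcam were not detected. The 2 erythroid markers summed to 12460 to 16121 in male KO and 17329 to 18970 in male WT livers. They went opposite ways, with log2 differences of -0.39 for Hba-a1 and 0.40 for Alas2 (0 called). What part the markers of these other cells had in the male values was not tested.

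The interaction of sex and genotype asks whether the KO minus WT difference was the same in males as in females. By limma 0 of the 28 genes passed, where 0.0909% of all genes passed (0.0404% above 0 and 0.0505% below), and 6 had an unadjusted p under 0.05, against 8.62% of all genes. The interaction was above 0 for 26 of the 28 genes, Insig2 at -0.48 and Agpat2 at -0.33 being the exceptions. Its median was 0.60, and that over all genes was 0.03. Of the 12 genes with more than 1 kept probe, the probes of Insig1, Lpin2 and Scap differed in sign. The interaction was also above 0 for 6 of 6 Kupffer cell markers (median 0.54) and 4 of 4 lymphocyte and neutrophil markers (median 0.56), with 0 called, and their part in it was not tested. By limma the value was 1.11 for Pklr (SE 0.311, adjusted p = 0.370) and 2.11 for Pnpla3 (SE 0.974, adjusted p = 0.564). It was 0.84 for Acss2 (SE 0.377, adjusted p = 0.564) and 0.73 for Mid1ip1 (SE 0.345, adjusted p = 0.580). The dimmer second probe of Pklr gave 0.56. The median was 0.42 without female WT 4, 0.40 without male WT 2 and 0.33 without both female WT 4 and female KO 9. Since all 4 groups enter, the interaction restates in 1 number the values given above for each sex.

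Single arrays moved many of these genes at once. Male WT 1 was the highest of its 3 arrays for 22 of the 28 genes, against 41.55% of all genes, and male WT 2 the lowest for 20, against 39.29%. Female WT 4 was the highest of its 5 arrays for 15 of the 28, against 30.03%. Female KO 9 was the lowest of its 5 arrays for 11 of the 28, a share near the 34.66% of all genes. The median deviation of the 28 genes from their group means was 0.30 on male WT 1, -0.22 on male WT 2, -0.20 on female KO 9, 0.26 on female WT 4 and -0.26 on female WT 5 on the log2 scale, where the median of all genes stayed within -0.04 and 0.03 on these arrays. The within-group SD of the 28 genes had a median of 0.36, compared with 0.32 for all genes. It was highest for Lpin1 (1.18), Pnpla3 (1.08) and Pnpla5 (1.08), followed by Mlxipl and Srebf1 (0.74 each), and lowest for Taldo1 (0.17) and Acsl5 (0.19).

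**Figure D3:**
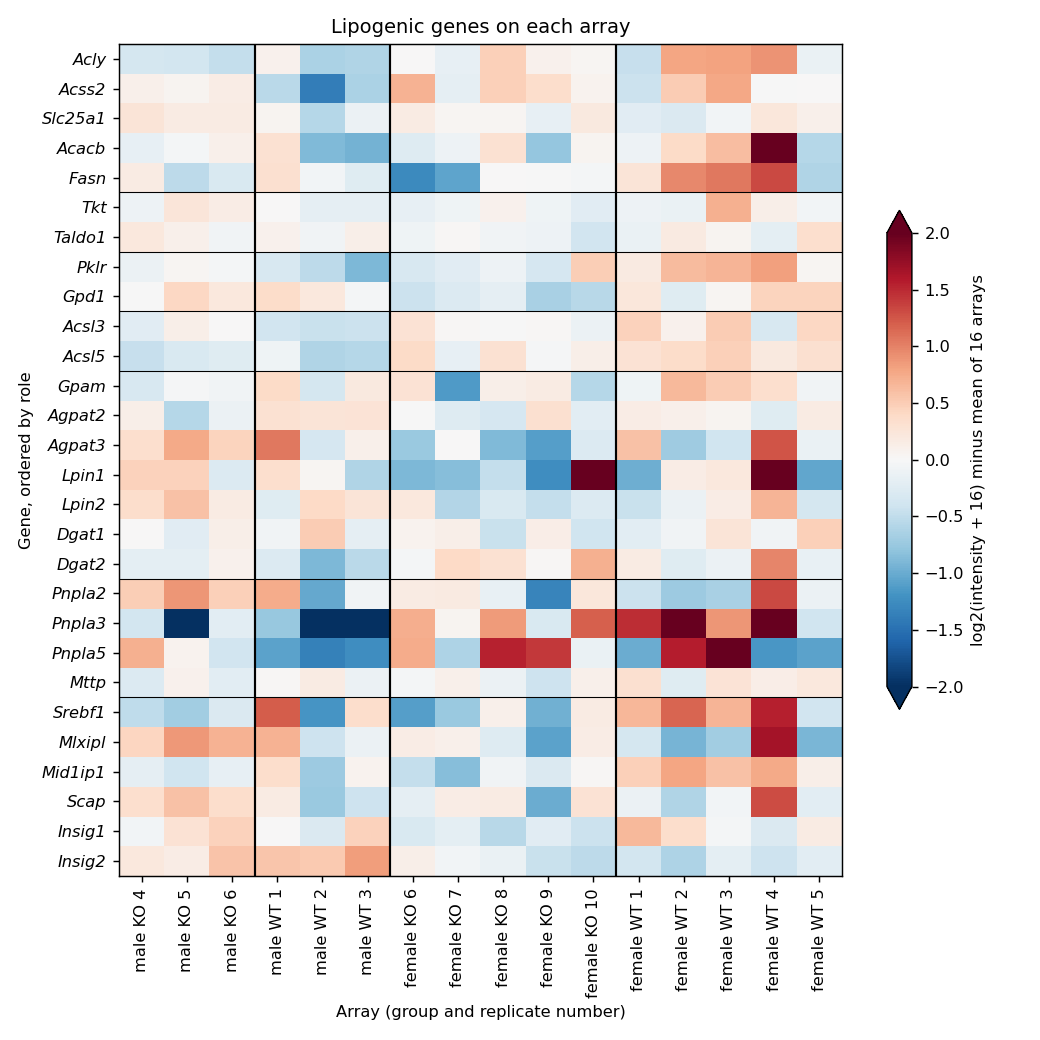
Each cell is log2(intensity + 16) of a gene on an array minus its mean over the 16 arrays, for the 28 tested genes in order of role (horizontal lines) and the 4 groups (vertical lines). The columns of female WT 4 (high for 15 genes within its group) and male WT 2 (low for 20) stand out, and Pnpla3 is low across male WT livers.

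Lpin1, the phosphatidate phosphatase lipin 1 that also acts as a coactivator in fasted liver, read 232, 233 and 134 in male KO, 211, 170 and 103 in male WT, 80.5, 84.4, 114, 60.5 and 730.5 in female KO and 75.3, 185, 193, 1091 and 72.1 in female WT livers. Each female group held 1 array several times above the rest, female KO 10 and female WT 4, and all other values of the gene lay between 60.5 and 233. The log2 difference KO minus WT was 0.29 in males (SE 0.841) and -0.48 in females (SE 0.651), with limma adjusted p of 0.902 and 0.862. In females it was 0.13 without female WT 4. A second, dimmer Lpin1 probe gave 0.78 in males and -0.24 in females. Mlxipl, the gene of ChREBP, read 956, 1299 and 1150 in male KO, 1156, 523 and 645 in male WT, 778, 758, 589, 325 and 782 in female KO and 551, 363, 431, 2257 and 366 in female WT livers. Female WT 4 was again the highest of all arrays, and male KO values lay above all female KO values. Its KO minus WT log2 difference was 0.61 in males (adjusted p = 0.626) and 0.06 in females (adjusted p = 0.981).

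The arrays on which Lpin1 was high were also those with the highest sums of genes induced by fasting. The 10 such genes with a probe, among them Pck1, G6pc and Igfbp1, summed to 20282 on female KO 10 and 32370 on female WT 4. On the other 14 arrays they summed to between 5948 and 11370. The sums do not stand for every gene of the list. Within their groups, 7 of the 9 tested genes were highest on female KO 10 and 5 on female WT 4. Among female WT arrays, Cyp4a14 and Pdk4 were highest on female WT 1, Ppargc1a on female WT 2 and Fgf21 on female WT 5. The 12 circadian genes with a probe, such as Dbp and Per1, summed to 6520 to 9448 on the male KO arrays and to 4897 to 6036 on the male WT arrays. They summed to 9640 on female KO 10, to 8956 on female WT 4 and to between 2966 and 5401 on the other female arrays. Dbp was a large part of these sums, averaging 4819 in male KO and 2051 in male WT livers. Within their groups, 6 of the 9 tested circadian genes were highest on female KO 10 and 6 on female WT 4. Others peaked elsewhere, among them Arntl and Clock, which were highest on female KO 6 and female WT 1. Of the 9 tested fasting-induced genes, 3 passed by limma between KO and WT in males (Igfbp1 at 4.36, Pdk4 at 2.30 and Ppargc1a at -0.96). In males 1.56% of all genes passed. In females 1 passed (Cyp4a14 at -4.21), where 2.38% of all genes did. Of the 9 tested circadian genes 0 passed in either sex by limma, and 0 had an unadjusted p under 0.05. The part of feeding state or time of day in the lipogenic genes was not tested.

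**Figure D4:**
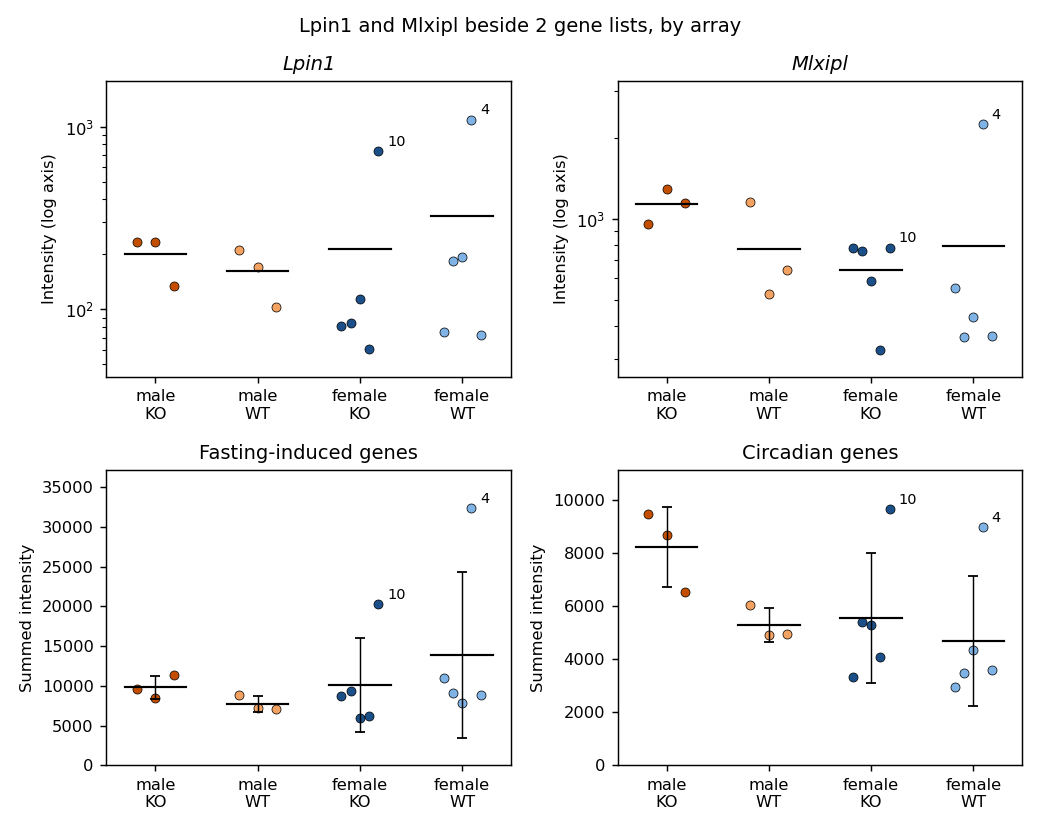
Intensity of Lpin1 and Mlxipl (log axis) and summed intensity of the 10 fasting-induced and 12 circadian genes with a probe, on every array, by group. Lines are group means, bars in the lower panels are SD, and the numbers mark female KO 10 and female WT 4. Female WT 4 is at the top of its group in all 4 panels (1091 for Lpin1, 2257 for Mlxipl, 32370 for fasting-induced genes, 8956 for circadian genes).

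Gpam, Agpat2, Agpat3, Lpin2, Dgat1, Dgat2, Pnpla2 and Mttp passed in none of the 5 comparisons by limma (0 of 8, where 0.0909% to 3.73% of all genes passed). At an unadjusted p under 0.05 were Agpat2 between KO and WT in males, Dgat2 between the sexes in WT livers, and Agpat3 and Lpin2 between the sexes in KO livers. For Lpin2 that value was 0.66, and its other kept probes gave 0.06 and, on a dim probe, -0.73. Agpat3, an acyltransferase of phospholipid and triglyceride synthesis, had the largest difference among them, 1.11 between male and female KO livers (599.5 to 811 in male KO and 212 to 476 in female KO livers, adjusted p = 0.201). Dgat2, which makes triglyceride from diacylglycerol, read 3690 to 5723 in male WT and 5848 to 13562 in female WT livers without overlap, with a log2 difference of -0.69 (adjusted p = 0.161), whereas Dgat1 had 0.01 (adjusted p = 0.984). Mttp, needed to load lipid onto lipoproteins, stayed between -0.21 and -0.06 in all 4 differences between groups. Scap, the escort of SREBP, had values of 518 to 621 in male KO and 237 to 456 in male WT livers, a log2 difference of 0.76 with an adjusted p of 0.414, whereas its dimmer second probe gave -0.44 (adjusted p = 0.552).

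Genes that neighbor the set in the same paths were counted in the same way, against the 3.73% of all genes that passed between the sexes in WT livers, 2.38% in KO livers, 1.56% between KO and WT in males and 2.38% in females. Among 20 tested genes of fatty acid synthesis, elongation, desaturation and the pentose phosphate path outside the set, 3 passed between the sexes in WT livers (Elovl3 higher in males, Elovl6 and Elovl5 lower), 1 in KO livers (Elovl3), 1 between KO and WT in males (Elovl3, lower in KO) and 4 in females (Rpe higher in KO, and Elovl5, Thrsp and Elovl2 lower). Elovl6, the elongase that turns palmitate into stearate, averaged 1635 ± 205 (SD, n = 3) in male KO, 776 ± 252 (SD, n = 3) in male WT, 2067 ± 536 (SD, n = 5) in female KO and 2129 ± 654 (SD, n = 5) in female WT livers, and a male minus female log2 difference of -1.44 in WT livers (limma adjusted p = 0.00356). Thrsp, the paralog of Mid1ip1 and its partner at acetyl-CoA carboxylase, averaged 906 ± 489 (SD, n = 5) in female KO and 3090 ± 1603 (SD, n = 5) in female WT livers, a log2 difference of -1.76 (adjusted p = 0.0344). Thrsp and Elovl2 (-0.86) were named after their values were seen.

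Elovl3, an elongase of very long chain fatty acids known as male-biased in mouse liver, averaged 79.3 ± 68.3 (SD, n = 3) in male KO and 588 ± 33.4 (SD, n = 3) in male WT livers, a log2 difference of -2.92 (limma adjusted p = 0.000287). It was not well above background on any female array. In males it was at least 16.3-fold higher than in females in WT livers (adjusted p = 2.13e-08) and at least 2.15-fold higher in KO livers (adjusted p = 0.000303), taking the lowest detected signal of each female array as the bound.

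Against the same shares of all genes, among 19 other genes of glycerolipid assembly Gpat4 (-0.58) and Gpd2 (-0.79) were lower in female KO than in female WT livers, Chpt1 (1.27) was higher in male than in female WT livers, and Pemt (-0.67) was lower in male than in female KO livers. Of 19 tested genes of lipid droplets, lipolysis and export, the carboxylesterase Ces1g (-1.80) and the droplet coat gene Plin5 (-1.14) were lower in female KO than in female WT livers. Lipa, the lysosomal acid lipase, was lower in males than in females in both genotypes (-0.79 in KO and -0.80 in WT livers), and Tm6sf2 (-1.01) and Ces1d (-0.72, named after its value was seen) were lower in males in WT livers. Of 17 tested genes of other regulators and hexose supply, 1 passed in any comparison, Srebf2, which was lower in male than in female WT livers (-0.75, adjusted p = 0.0164).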

How the data were processed

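Liver RNA was labelled as biotinylated cRNA and hybridized to Illumina mouse Ref-6 bead arrays by a core facility. The deposited intensity of each probe was background-subtracted and quantile normalized by the authors, as the values show (35.2 to 35.3% of them below 0 on each array and nearly the same distribution on all 16), and the submitters' processing notes name lumi without a version. A second, non-normalized table was not used here, because its columns match no sample label.

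Levels are log2(intensity + 16), with negative intensities taken as 0. The noise of an array was the root mean square of its negative values, and signals over 3 times that noise were taken as detected. Probes of 1 gene (34885 of 45281, with 18 of several genes and 10378 of none by the array annotation) were kept where detected on at least 3 arrays (14946), and the brightest kept probe stood for each of 9906 genes. All 16 arrays were fitted with 1 mean per group in limma 3.58.1 (R 4.3.3, lmFit and eBayes, 12 residual and 4.03 prior degrees of freedom), with Benjamini-Hochberg adjustment of the p-values and a threshold of 0.05. The script was tested on simulated data. The number of arrays, 3 in each male group, limits the precision. The labels give no slide or scan date.

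The genes and lists were chosen with earlier results of these data known. Values on every array are given for genes that passed in at least 1 comparison and for Pnpla3, Fasn, Lpin1, Srebf1, Mlxipl and Insig1, and for Rxra as the targeted gene, and up to 4 passing genes of each other list are named, by lowest p. Alternatives were offsets of 4 and 50, no filter, the mean of a gene's probes, cyclic loess, array weights, an intensity trend, only the arrays compared, each array left out and a replicate block.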

Additional observations from a re-analysis of the deposited data

Results flagged for a closer look

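Among the 56 sets of 5 female values examined (28 genes in female KO and in female WT livers), 6 held an array far from the other 4 by Dixon's test, where chance gives about 1 in 20. On female KO 10, Lpin1 read 730.5 and Pklr 326, both above the others of the group. On female KO 9, Pnpla2, the gene of adipose triglyceride lipase, read 126, below the others. On female WT 4, Mlxipl read 2257 and Scap 1025, above the other female WT arrays, and Agpat2 read 1782, below them. Outside the set, the KO minus WT difference of Elovl3 differed between males and females by -2.70 on the log2 scale (limma adjusted p = 0.0304), with the gene not well above background on any of the 10 female arrays, so its difference between female KO and female WT livers was not measurable.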

How the results depend on the processing

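The count of genes passing between male and female WT livers, 5, was 3 with the mean of a gene's probes, 2 with only the arrays compared, 8 with array weights, and 2 to 6 with 1 array left out. Insig2 kept its call in 25 of 27 alternatives, Pnpla3 in 25, Pklr in 23, Acsl5 in 21 and Acss2 in 9. The WT arrays numbered 1 to 3 in both sexes share only a number (correlations of deviations 0.0981, 0.261 and 0.0752). With the number as a replicate block 0 genes passed, and 1 (Pnpla3) passed on the same 6 arrays without a block. Between KO and WT in females the count of 1 was 0 with an offset of 4, without a filter and with only the arrays compared, 2 with an offset of 50, cyclic loess and an intensity trend (Gpd1 and Mid1ip1), and 0 to 2 with 1 array left out. Array weights gave 4 genes between KO and WT in males and 3 between the sexes in KO livers, each 0 otherwise. They also raised the share of all genes called, to 16.3% between KO and WT in males, 14.2% between the sexes in WT livers and 5.09% in KO livers. The interaction stayed at 0 in 24 alternatives. An alternative chosen after seeing the data left out female WT 4 and female KO 9 together and gave 0 between KO and WT in females.

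Some small differences changed sign. With array weights Insig1 had -0.08 between KO and WT in males and 0.13 between the sexes in WT livers, and Srebf1 had -0.03 between the sexes in KO livers (-0.0017 with an offset of 50). Acsl5 had -0.17 between KO and WT in males with the mean of its probes. Without female WT 4 and female KO 9, Lpin1 had 0.37 between KO and WT in females, 0.34 between the sexes in WT livers and -0.08 as interaction, Mlxipl -0.14 as interaction, and Pklr -0.00058 and Srebf1 -0.10 between the sexes in KO livers. Lpin1 had 0.13 between the sexes in WT livers with the replicate block, and 0.13 on the same arrays without it. With 1 array left out, the KO minus WT range in males was -0.01 to 0.25 for Acsl5 and -0.46 to 0.08 for Mid1ip1, and in females -0.04 to 0.26 for Acss2, -1.06 to 0.13 for Lpin1 and -0.11 to 0.53 for Mlxipl. Between the sexes in WT livers it was -0.57 to 0.34 for Lpin1, -1.15 to 0.04 for Srebf1, -0.03 to 0.77 for Mlxipl and -0.30 to 0.07 for Insig1, and in KO livers -0.00058 to 0.21 for Pklr, -0.05 to 0.17 for Mid1ip1 and -0.13 to 0.18 for Srebf1. The interaction of Srebf1 was -0.03 to 1.17. The causes were not tested. Dim probes such as those of Fasn, Dgat1 and Pnpla5 limit what could be seen.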
